A study of Mus musculus with 20 samples.

Results

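The Cyp2c genes encode a family of cytochrome P450 enzymes that mouse hepatocytes make in large amounts. The 10 members described here were fixed by name, Cyp2c29, Cyp2c37, Cyp2c38, Cyp2c39, Cyp2c40, Cyp2c44, Cyp2c50, Cyp2c54, Cyp2c69 and Cyp2c70, which are 10 of the 25444 loci in the tables. Each matched 1 locus, and all 10 passed the filter on low counts that left 13704 loci to test. Liver RNA was sequenced from 20 mice killed at 20 weeks of age, 5 females (F) and 5 males (M) of the inbred strain C57BL/6N (B6) and 5 females and 5 males of C3H/HeN (C3), so that n = 5 mice in every group. The mice carried no transgene, lived 1 to a cage and were fed NIH-31 diet before a change to NTP2000 diet ahead of collection. Females and males were kept in different rooms, so a sex difference and a room difference cannot be told apart. Each group had at least 1 liver in each of 3 sequencing pools.

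A P450 enzyme sits in the membrane of the endoplasmic reticulum and uses a heme iron, molecular oxygen and electrons passed on by the reductase Por to oxidise small lipophilic molecules. Enzymes of the Cyp2c family oxidise drugs, steroids, retinoids and arachidonic acid, from which they form epoxides and hydroxylated acids, and Cyp2c70 hydroxylates bile acids on the way to the muricholic acids of mice. Many liver P450 genes are sex dependent in rodents because pituitary growth hormone is released in pulses in males and more evenly in females, and this pattern reaches the liver through the receptor Ghr and the transcription factor Stat5b.

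Library totals ran from 27370921 to 46835745 counted read pairs. The 7 libraries of pool 3 were the deepest, at 38928480 to 46835745 against 27370921 to 36673533 in the other 13. The sex labels held in every liver, with Xist, the RNA that coats the inactive X chromosome, at 380 to 772 CPM (counts scaled to the library's TMM-adjusted total) in females and at most 0.348 CPM in males, and the Y-linked gene Ddx3y at most 0.03305 CPM in females. Hepatocyte markers summed to between 92850 and 177200 CPM in every group, as the tissue label states. In whole liver, fewer cells that express a gene and less RNA per cell cannot be told apart.

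Of the members, 9 lie in a cluster of 15 Cyp2c loci on chromosome 19 that spans 1.18 Mb in the mm9 assembly, and Cyp2c44 lies apart, 3.82 Mb beyond the cluster. No locus of the tables overlaps a member. Every member has 9 exons in the annotation used here and a coding sequence of 489 to 494 codons. Cyp2c29 occupies chr19:39361575-39405203 on the plus strand, Cyp2c38 chr19:39464046-39537565 on the minus strand and Cyp2c39 chr19:39585312-39643019 on the plus strand. Cyp2c40, at chr19:39841563-39887304, and Cyp2c69, at chr19:39917150-39961259, stand side by side on the minus strand behind their close relatives Cyp2c67 and Cyp2c68. At the far end follow Cyp2c37 at chr19:40066914-40086733 (plus), Cyp2c54 at chr19:40112430-40148303 (minus), Cyp2c50 at chr19:40164169-40188445 (plus) and Cyp2c70 at chr19:40227851-40261776 (minus). Cyp2c44, which a later RefSeq table names Cyp2c23, occupies chr19:44079512-44103737 on the minus strand.

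The 250 bases directly before the annotated start are printed 5′ to 3′ for 8 members, because these members form 3 sets of close relatives whose levels differed by sex or strain in unlike ways. They were read from the mm9 reference, which comes from C57BL/6J, and the C3 sequence was not used here. Capitals mark matches to the letters searched, described in the next paragraph. The annotated starts of Cyp2c40 and Cyp2c69 are not aligned with each other, so a stretch shared by both stands at a different distance from each start.
Cyp2c69, chr19:39961260-39961509, minus strand: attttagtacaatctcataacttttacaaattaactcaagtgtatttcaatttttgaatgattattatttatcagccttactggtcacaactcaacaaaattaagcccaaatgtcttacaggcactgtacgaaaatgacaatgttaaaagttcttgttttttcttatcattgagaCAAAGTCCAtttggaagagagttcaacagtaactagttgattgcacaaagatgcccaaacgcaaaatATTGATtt
Cyp2c40, chr19:39887305-39887554, minus strand: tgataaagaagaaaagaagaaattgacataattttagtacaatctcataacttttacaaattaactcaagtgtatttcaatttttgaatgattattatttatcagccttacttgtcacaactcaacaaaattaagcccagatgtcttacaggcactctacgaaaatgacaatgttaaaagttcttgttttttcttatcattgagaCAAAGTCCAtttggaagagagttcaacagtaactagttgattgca
Cyp2c38, chr19:39537566-39537815, minus strand: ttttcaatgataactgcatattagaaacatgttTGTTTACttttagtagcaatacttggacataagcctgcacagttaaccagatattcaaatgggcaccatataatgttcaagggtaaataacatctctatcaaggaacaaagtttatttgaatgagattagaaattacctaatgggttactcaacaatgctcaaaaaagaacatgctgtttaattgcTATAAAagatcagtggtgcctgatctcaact
Cyp2c39, chr19:39585062-39585311, plus strand: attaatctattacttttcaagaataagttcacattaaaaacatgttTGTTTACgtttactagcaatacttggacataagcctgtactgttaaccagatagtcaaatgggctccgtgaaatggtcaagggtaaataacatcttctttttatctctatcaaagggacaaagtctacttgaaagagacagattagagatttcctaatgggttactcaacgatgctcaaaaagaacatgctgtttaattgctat
Cyp2c29, chr19:39361325-39361574, plus strand: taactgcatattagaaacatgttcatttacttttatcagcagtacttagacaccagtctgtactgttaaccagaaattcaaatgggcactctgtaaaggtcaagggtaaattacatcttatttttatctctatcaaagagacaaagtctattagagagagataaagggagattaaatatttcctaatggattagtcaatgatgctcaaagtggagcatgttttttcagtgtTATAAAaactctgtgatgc
Cyp2c37, chr19:40066664-40066913, plus strand: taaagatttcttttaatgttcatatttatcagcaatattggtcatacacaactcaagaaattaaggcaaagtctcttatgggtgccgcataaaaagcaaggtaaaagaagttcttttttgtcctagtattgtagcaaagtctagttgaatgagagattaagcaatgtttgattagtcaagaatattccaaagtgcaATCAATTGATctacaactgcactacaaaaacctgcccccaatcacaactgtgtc
Cyp2c50, chr19:40163919-40164168, plus strand: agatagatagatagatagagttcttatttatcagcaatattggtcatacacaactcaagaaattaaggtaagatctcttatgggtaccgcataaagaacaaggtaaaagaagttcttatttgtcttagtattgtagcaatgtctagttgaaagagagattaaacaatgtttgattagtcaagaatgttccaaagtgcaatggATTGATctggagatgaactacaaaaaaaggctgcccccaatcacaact
Cyp2c54, chr19:40148304-40148553, minus strand: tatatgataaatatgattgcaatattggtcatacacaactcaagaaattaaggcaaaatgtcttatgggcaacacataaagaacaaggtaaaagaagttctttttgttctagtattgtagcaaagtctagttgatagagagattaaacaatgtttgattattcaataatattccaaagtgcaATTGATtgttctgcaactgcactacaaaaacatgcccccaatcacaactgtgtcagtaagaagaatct

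The windows of Cyp2c37 and Cyp2c50 shared 84.3% of aligned bases, those of Cyp2c37 and Cyp2c54 80.3%, those of Cyp2c40 and Cyp2c69 77.5% and those of Cyp2c38 and Cyp2c39 71.0%. The letters CAAAGTCCA, in the style of a site for the nuclear receptor HNF4, stood in the windows of Cyp2c40, Cyp2c69 and Cyp2c70, and in 0.4% of the 25283 windows cut in the same way before all loci. The letters ATTGAT, in the style of an HNF6 site, stood in the windows of Cyp2c37, Cyp2c50, Cyp2c54 and Cyp2c69, against 7.22% of all windows, and the 2 matches of Cyp2c37 overlap. TGTTTAC, in the style of a FOXA site, stood in the windows of Cyp2c38 and Cyp2c39, against 2.78%. All of these were searched on both strands, as was TTCNNNGAA, in the style of a STAT5 site, which stood in none of the members' windows and in 6.74% of all windows. TATAAA, searched on the sense strand alone, stood in the windows of Cyp2c29 and Cyp2c38, against 8.41%. The window of Cyp2c39 ends within the stretch that reads TATAAA in Cyp2c38, so whether Cyp2c39 has these letters cannot be told from its window. In the same way, the window of Cyp2c40 ends before the stretch that holds ATTGAT in Cyp2c69. The palindromic HNF1 motif stood in 1 of the 25283 windows, which is no member's. A match of letters is a description of the sequence and not a site in use.

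Levels of different genes are given as TPM, the deposited unit that divides counts by gene length. The 10 members summed to 8816 ± 1103 TPM (SD, n = 5) in B6 females against 5741 ± 345 TPM in the males of that strain. In C3 the sums were 6687 ± 250 TPM for females and 5735 ± 382 TPM for males. In either strain the lowest female liver had a higher sum of these 10 members than the highest male liver, at 7303 against 6281 TPM in B6 and 6399 against 6159 TPM in C3. The sum leaves out the neighbouring loci Cyp2c67 and Cyp2c68. In C3, Cyp2c67 had a mean of 1217.4 TPM in males against 255.56 TPM in females, while Cyp2c68 was higher in females. Cyp2c67 ran from 957 to 1752 TPM in C3 males and from 185 to 367 TPM in C3 females. With both loci added, the sums of the C3 females and males would overlap, so their separation holds for these 10 members alone. The make-up of the sum differed more than its size. Cyp2c69 had the highest mean level in B6 females, 24.5% of the sum, though its range overlapped that of Cyp2c29, which followed with 20.2%. Cyp2c29 stood first in the other groups and ahead of the next member in every liver, with 44.1% of the sum in B6 males, 54.4% in C3 males and 23.2% in C3 females.

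**Figure D1:**
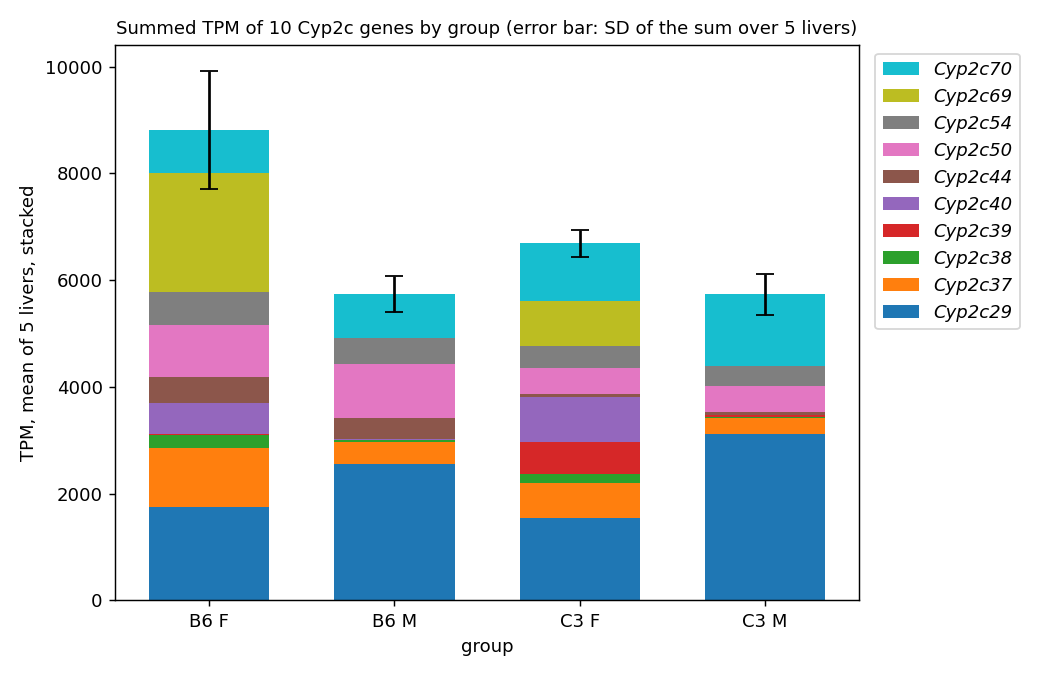
Stacked bars give the mean TPM of each of 10 Cyp2c genes over 5 livers in each group, from 0, and the error bar is the SD of the sum over the 5 livers. Cyp2c69, Cyp2c40 and Cyp2c38 take up a visible part of the female bars alone, Cyp2c39 is visible in C3 females alone, and Cyp2c29 is the largest part of both male bars.

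Among the members, the lowest mean level was that of Cyp2c39 in both B6 groups, with means of 22.9 TPM in females and 4.06 TPM in males. In C3 the lowest member was Cyp2c44 in females, with 43.9 TPM, and Cyp2c69 in males, with 0.596 TPM. In B6 females, Cyp2c37, Cyp2c50, Cyp2c70, Cyp2c54, Cyp2c40 and Cyp2c44 followed each other between 1116 and 487 TPM, each overlapping its neighbour. In C3 females the order from the third place was Cyp2c40, Cyp2c69, Cyp2c37, Cyp2c39, Cyp2c50 and Cyp2c54, between 851 and 422 TPM, again with overlap between neighbours. In C3 males the first members were set apart from each other, Cyp2c29 at 3116, Cyp2c70 at 1345 and Cyp2c50 at 485 TPM, each without overlap with the next. In B6 males Cyp2c29 at 2546 TPM stood alone, and Cyp2c50 at 1005 and Cyp2c70 at 820 TPM overlapped.

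**Figure D2:**
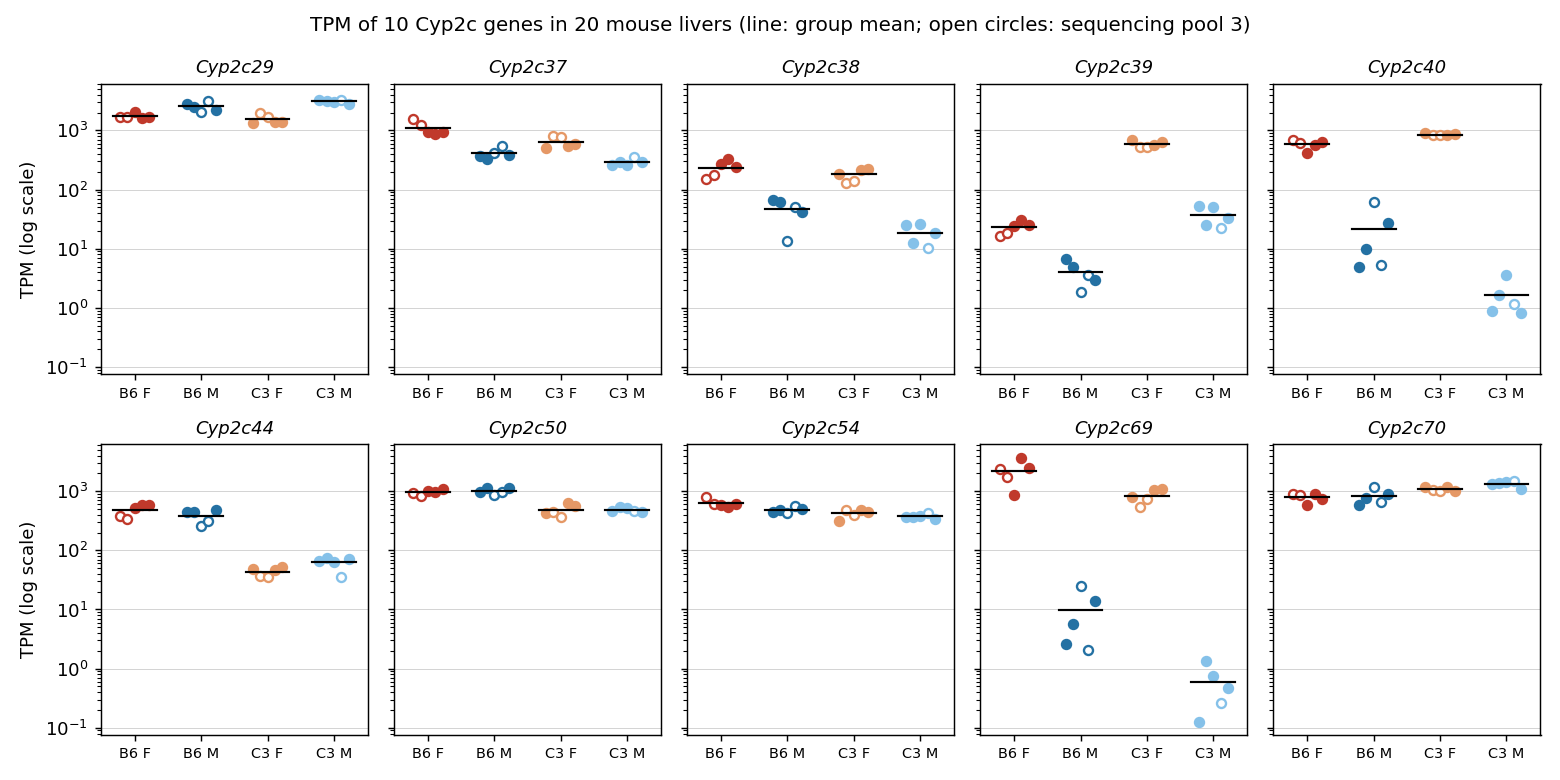
Each circle is the TPM of 1 gene in 1 liver on a log axis, by group, with the group mean as a line and the livers of sequencing pool 3 as open circles. Cyp2c69 and Cyp2c40 are far lower in the 10 male livers than in the 10 female livers, Cyp2c39 is higher in the 10 C3 livers and Cyp2c44 is lower in them, within each sex.

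The levels of 6 members differed between the sexes, and the same 6 did so in both strains. A gene was called when edgeR's quasi-likelihood test, fitted to all 20 libraries, gave a Benjamini-Hochberg adjusted p under 0.001 and a log2 fold change beyond 0.5 in size. In B6, 5 of 10 members were called higher in females (Cyp2c37, Cyp2c38, Cyp2c39, Cyp2c40, Cyp2c69) and 1 higher in males (Cyp2c29). Over all loci tested, 3.23% were called higher in females and 3.12% higher in males. In C3 the counts were again 5 and 1, against 4.11% and 2.79% of all loci. The 5 female and 5 male livers did not overlap for 6 members in either strain, against 10.9% of all loci in B6 and 13.1% in C3. The median size of the log2 fold change was 0.98 over the members and 0.20 over all loci in B6, and 1.02 and 0.22 in C3. The members were chosen with earlier results of these data known, and several are close relatives. Shares over all loci, here and by strain, are therefore a description and not a test of the family.

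**Figure D3:**
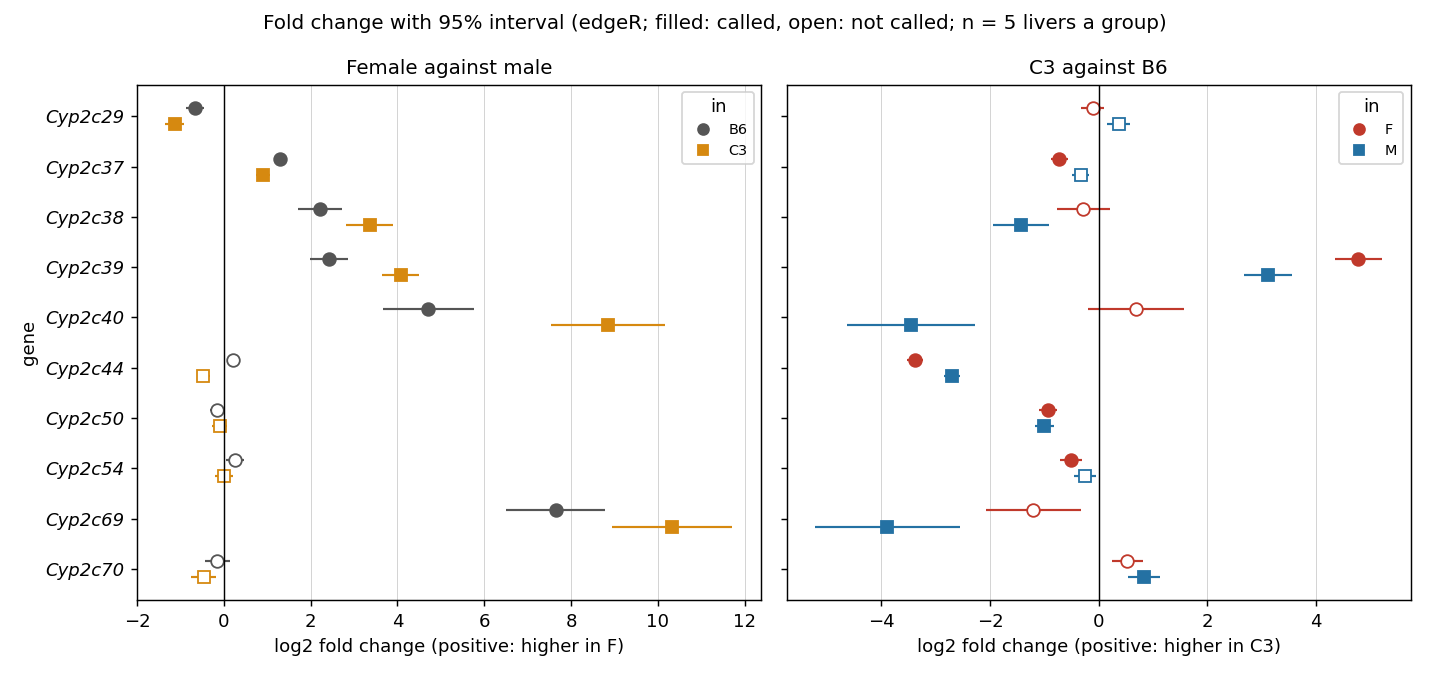
Log2 fold changes of the 10 genes with 95% intervals, females over males on the left (B6 circles, C3 squares) and C3 over B6 on the right (females circles, males squares), filled where called. Cyp2c69 and Cyp2c40 lie farthest to the right in the sex panel, and Cyp2c39 and Cyp2c44 lie on opposite sides of 0 in the strain panel.

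Of the 10 members, Cyp2c69 had the largest sex difference. In B6 its level was 1868, 1347, 698, 3065 and 1959 CPM in females 1 to 5 and 2.28, 5.02, 21.8, 1.75 and 12.1 CPM in males 1 to 5. In C3 it was 661, 444, 597, 923 and 904 CPM in females and 0.116, 1.24, 0.689, 0.238 and 0.428 CPM in males. Every female liver was above every male liver by more than an order of magnitude. Females over males, the log2 fold change came to 7.64 ± 0.59 (SE) for B6 and 10.33 ± 0.71 for C3 (edgeR adjusted p = 1.8e-08 and 3.9e-09). The C3 male libraries held between 3 and 43 counts of the gene, so the male level is near the limit of what this depth can measure.

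Cyp2c40, which hydroxylates arachidonic acid, showed the same order of groups by sex. Its level in B6 females 1 to 5 was 556, 488, 342, 471 and 504 CPM. In B6 males it was 4.26, 8.99, 53.7, 4.54 and 24.4 CPM, with male 3 the highest of its group, as it was for Cyp2c69. In C3 it was 765, 680, 691, 768 and 729 CPM in females, a coefficient of variation of 5.59%, and 0.812, 1.53, 3.36, 1.09 and 0.749 CPM in males. This gave log2 fold changes of 4.71 ± 0.53 in B6 and 8.85 ± 0.67 in C3 (edgeR adjusted p = 2.3e-06 and 1.5e-08). Without B6 male 3 the B6 value was 5.68 for Cyp2c40 and 8.63 for Cyp2c69. Reads of both genes can match near-identical neighbours, and the summed counts of these genes are given with the other close relatives.

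Cyp2c38 and Cyp2c39, neighbours in the cluster, were also higher in females. Cyp2c38 was at 189, 220, 359, 442 and 311 CPM in B6 females and at 94.4, 87.8, 19.1, 69.2 and 59.3 CPM in B6 males. For C3 the values were 253, 174, 186, 311 and 308 CPM in females and 37.6, 18.2, 39.2, 15.2 and 26.9 CPM in males. The groups did not overlap within either strain, and B6 male 3 was the lowest of its group. Females exceeded males by 2.21 ± 0.26 on the log2 scale in B6 and by 3.36 ± 0.28 in C3 (edgeR adjusted p = 3.8e-06 and 5e-08).

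Cyp2c39, an enzyme known to hydroxylate retinoic acid, was at 13.3, 15.0, 20.6, 27.02 and 20.9 CPM in B6 females and 6.22, 4.56, 1.71, 3.18 and 2.79 CPM in B6 males. In C3 females it was at 600.4, 448, 457, 537 and 566 CPM, and in C3 males at 49.8, 23.7, 48.7, 21.8 and 31.7 CPM. Females were above males in each strain without overlap, and the C3 males, from 21.8 CPM up, overlapped the B6 females or lay above them. On the log2 scale the female excess was 2.42 ± 0.22 for B6 and 4.08 ± 0.22 for C3 (edgeR adjusted p = 1.7e-07 and 9.6e-11).

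Cyp2c37, which makes hydroxylated products of arachidonic acid, had a smaller female excess. It was at 1267, 993, 814, 739 and 764 CPM in B6 females against 333, 302, 373, 475 and 356 CPM in B6 males. In C3 it was at 442, 665, 647, 502 and 506 CPM in females against 248, 273, 248, 331 and 272 CPM in males. The lowest female liver exceeded the highest male liver in both strains. In log2 terms the excess was 1.302 ± 0.08 for B6 and 0.91 ± 0.08 for C3 (edgeR adjusted p = 8.7e-10 and 1.3e-07).

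Cyp2c29, an arachidonic acid epoxygenase, was the 1 member that was higher in males. It was at 1315, 1313, 1736, 1334 and 1337 CPM in B6 females and 2498, 2171, 1834, 2651 and 1948 CPM in B6 males. In C3 it was at 1154, 1590, 1371, 1220 and 1191 CPM in females and 3016, 2894, 2770, 3049 and 2582 CPM in males. The B6 groups came close, at 1736 in the highest female and 1834 in the lowest male, and the C3 groups were far apart. Its log2 fold change of females over males was -0.66 ± 0.11 for B6 and -1.13 ± 0.11 for C3 (edgeR adjusted p = 0.00013 and 3.5e-07). Tested against a minimum change of 0.5 by glmTreat, the B6 difference had an adjusted p of 0.36.

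The remaining 4 members were not called by sex in either strain. Cyp2c50 is an epoxygenase close to Cyp2c37 in sequence. Its edgeR p by sex was 0.063 in B6 (adjusted p = 0.13) and 0.254 in C3 (adjusted p = 0.36). The normal 95% interval of the log2 fold change of females over males is narrower than this test would give. For Cyp2c50 it was -0.33 to -0.0016 in B6 and -0.27 to 0.07 in C3. For Cyp2c54, a further epoxygenase of this set, it was 0.06 to 0.45 in B6 and -0.20 to 0.20 in C3. For Cyp2c70 it was -0.44 to 0.13 in B6 and -0.76 to -0.18 in C3, where the edgeR adjusted p was 0.018. For Cyp2c44, an arachidonic acid epoxygenase studied in liver, kidney and vessels, it was 0.08 to 0.36 in B6. In C3 the Cyp2c44 interval was -0.61 to -0.33 and the edgeR adjusted p was 9.3e-05, but the log2 fold change of -0.47 did not pass the limit of 0.5. The females and males of a strain overlapped for each of these 4 genes.

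Strain differences touched 9 members, 3 of them in both sexes. In females, 1 member was called higher in C3 (Cyp2c39) and 4 higher in B6 (Cyp2c37, Cyp2c44, Cyp2c50, Cyp2c54), against 4.63% and 4.77% of all loci. In males, 2 were called higher in C3 (Cyp2c39, Cyp2c70) and 5 higher in B6 (Cyp2c38, Cyp2c40, Cyp2c44, Cyp2c50, Cyp2c69), against 4.09% and 5.55%. The strains did not overlap for 7 members in females and 5 in males, against 12.8% and 15.1% of all loci. The median size of the log2 fold change was 0.70 over the members and 0.18 over all loci in females, and 1.21 and 0.20 in males. Cyp2c29 alone was called in neither sex, with an interval of -0.32 to 0.10 in females and 0.16 to 0.58 in males. The call of Cyp2c54 in females, at a log2 fold change of -0.51 and an edgeR adjusted p of 0.00068, was the least firm, and it was lost when any 1 of 10 livers was left out.

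Cyp2c44 had the most certain strain difference of the family. It was at 370.2, 331, 542, 603 and 581 CPM in B6 females and at 51.4, 36.8, 35.4, 50.6 and 54.7 CPM in C3 females. In males it was at 477, 485, 275, 321 and 534 CPM in B6 and 74.3, 84.1, 73.4, 40.5 and 81.4 CPM in C3. The highest C3 liver was far below the lowest B6 liver in both sexes. The log2 fold change of C3 over B6 was -3.39 ± 0.08 in females, a 10.5-fold lower level in C3, and -2.70 ± 0.08 in males, 6.48-fold lower. Of all 13704 loci it had rank 2 by p in females (edgeR adjusted p = 3.8e-16) and rank 3 in males (9.1e-15).

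Cyp2c39 went the other way, with levels per liver as given above. It was 27.5-fold higher in C3 females than in B6 females, a log2 fold change of 4.78 ± 0.22, and 8.73-fold higher in C3 males, 3.13 ± 0.23 (edgeR adjusted p = 7.4e-12 and 3e-09). Its neighbour Cyp2c38 did not follow. The Cyp2c38 difference of C3 over B6 was -0.28 in females, with an interval of -0.77 to 0.20, and -1.43 ± 0.26 in males, where it was called lower in C3 (edgeR adjusted p = 0.00031) although the male groups overlapped. In TPM, Cyp2c39 stood at a median of 0.104 times Cyp2c38 in B6 females and 3.67 times Cyp2c38 in C3 females, and at 0.080 and 2.01 times in B6 and C3 males.

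The set of Cyp2c37, Cyp2c50 and Cyp2c54 was lower in C3. Cyp2c50 was at 1219, 1082, 1349, 1311 and 1446 CPM in B6 females against 591, 608, 500.4, 935 and 777 CPM in C3 females, and at 1225 to 1663 CPM in B6 males against 657 to 808 CPM in C3 males. The strains did not overlap in either sex. Its log2 fold change of C3 over B6 was -0.93 ± 0.08 in females and -0.997 ± 0.09 in males (edgeR adjusted p = 7.6e-08 and 3.5e-08). For Cyp2c37 the values were -0.72 ± 0.08 in females (1e-06) and -0.33 ± 0.08 in males (0.0037, not called), and for Cyp2c54 -0.51 ± 0.10 and -0.26 ± 0.10 (0.06, not called).

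In males, Cyp2c40 and Cyp2c69 were lower in C3 than in B6, with log2 fold changes of -3.46 ± 0.60 and -3.89 ± 0.68 (edgeR adjusted p = 0.00019 and 2e-04). The male groups did not overlap for either gene, the closest values of Cyp2c69 being 1.24 CPM in C3 and 1.75 CPM in B6. In females neither was called. The Cyp2c40 interval was -0.20 to 1.57, although each C3 female was above every B6 female in CPM, and the Cyp2c69 interval was -2.07 to -0.33 with an edgeR adjusted p of 0.045. Within B6 females the ratio of Cyp2c69 to Cyp2c40 in TPM ran from 2.08 to 6.62, and within C3 females from 0.664 to 1.26. Cyp2c70 was higher in C3 males at 947 to 1331 CPM, against 494 to 997 CPM in B6 males, a log2 fold change of 0.84 ± 0.15 (edgeR adjusted p = 0.00023). In females it was at 787 to 1023 CPM in C3 and 474 to 716 CPM in B6, without overlap, and its log2 fold change of 0.53 ± 0.15 was not called (0.0093).

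Several of the 7 strain calls in males lay near the threshold. Without C3 male 4, the 1 C3 male in pool 3, 3 calls were left (Cyp2c39, Cyp2c44, Cyp2c50), and the adjusted p of Cyp2c38, Cyp2c40, Cyp2c69 and Cyp2c70 lay between 0.0014 and 0.0017. Their log2 fold changes of C3 over B6 were then -1.39, -3.21, -3.61 and 0.82, against -1.43, -3.46, -3.89 and 0.84 with all livers. The call of Cyp2c38 was also lost without B6 male 1, C3 male 2 or C3 male 5, and that of Cyp2c70 without B6 male 1 or B6 male 2. With the male libraries fitted on their own, 3 were called as well.

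The sex-by-strain interaction asks whether the female-to-male ratio differed between the strains. It was called for Cyp2c44 alone, at -0.69 ± 0.10 on the log2 scale (edgeR adjusted p = 0.00067), 1 of 10 members against 0.131% of all loci called lower in C3, and no member was called higher, against 0.270%. At an unadjusted p under 0.05 the interaction counted 7 of 10 members against 16.1% of all loci, and 4 of them were higher against 9.57%. In mean CPM, Cyp2c44 was 485 in B6 females and 418 in B6 males, while C3 had 45.8 in females and 70.7 in males. The call was lost when any 1 of 16 livers was left out, and in 7 of 13 other settings. Cyp2c39 had an interaction of 1.66 ± 0.29 and Cyp2c40 of 4.14 ± 0.75, with larger female-to-male ratios in C3, at edgeR adjusted p of 0.0032 and 0.0037. DESeq2 called these 3 genes, 2 higher and 1 lower. For Cyp2c69 it was 2.69 ± 0.82 with an edgeR adjusted p of 0.088.

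Several members moved with the sequencing pool. In each of the 4 groups the pool 3 livers were below all others for Cyp2c44, by 0.74 on the log2 scale on average, and above all others for Cyp2c37, by 0.42. In 3 of the 4 groups they were the lowest for Cyp2c38, by 0.90 on average over all 4, and for Cyp2c39, by 0.66. Livers were assigned to pools at random according to the methods, and pool is a term in the fit. Every sex or strain call of a member kept its direction within each of the 3 pools, where 1 or 2 livers a group could be compared. For Cyp2c44 the difference of C3 over B6 was -3.49, -3.40 and -3.28 in females of pools 1, 2 and 3, and for Cyp2c39 it was 4.53, 4.86 and 5.00. What the pool difference comes from was not tested.

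B6 male 3 stood at an end of its group for 9 of the 10 members. It was the highest of the B6 males for Cyp2c40, Cyp2c69 and Cyp2c70, the last at 997 CPM, and the lowest for Cyp2c29, Cyp2c38, Cyp2c39, Cyp2c44, Cyp2c50 and Cyp2c54. It belongs to pool 3, as B6 male 4 does, and male 4 had 4.54 CPM of Cyp2c40 and 1.75 CPM of Cyp2c69, against 53.7 and 21.8 CPM in male 3.

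Members of the family resemble each other enough for reads to be hard to place, and read pairs that mapped to several places were not counted. Coding sequences were 97.9% identical between Cyp2c40 and Cyp2c69, 98.1% between Cyp2c40 and Cyp2c68, and 97.7% between Cyp2c40 and Cyp2c67. They were 96.1% identical between Cyp2c37 and Cyp2c50 and 95.1% between Cyp2c37 and Cyp2c54. Between Cyp2c38 and Cyp2c39 they were 94.2% identical, and between Cyp2c29 and Cyp2c39 89.5%. Of the 125-base windows of the transcript, the length of 1 read, 36.6% of those of Cyp2c40 and 28.0% of those of Cyp2c69 occur without a mismatch in another gene, against 6.16% for Cyp2c50, 4.5% for Cyp2c54, 1.76% for Cyp2c37 and none for the other 5 members. Read pairs from such windows can go uncounted, so counts of Cyp2c40 and Cyp2c69 may be too low, and by unlike amounts. Shorter windows of 50 bases are shared more often, 72.1% of those of Cyp2c40 and 51.4% of those of Cyp2c69. The share was 30.7% for Cyp2c50, 29.2% for Cyp2c37 and 25.0% for Cyp2c54. It was 11.4% for Cyp2c39 and 7.45% for Cyp2c38, most often with each other, and 0.53% for Cyp2c29. How the counted pairs divide between the genes is also uncertain, Cyp2c38 and Cyp2c39 included, and reads of both strains were aligned to the same reference. How far this moves the counts was not tested.

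Counts of close relatives were also added up, so that a sum does not depend on how the counted reads were divided within it. Read pairs that were not counted are missing from a sum as well. Cyp2c40 and Cyp2c69 summed to 1 row were higher in females by a log2 fold change of 6.36 in B6 and 9.45 in C3, and lower in C3 by 3.60 in males, all called. With Cyp2c67 and Cyp2c68 added to them, the female excess was 2.29 ± 0.17 in B6 and 0.68 ± 0.16 in C3 (edgeR adjusted p = 7.6e-09 and 0.0033, the second not called), and the sum was higher in C3 males by 0.95 ± 0.16 (0.00017). This sum of 4 genes was chosen after the data were seen, and in C3 males it is mostly Cyp2c67, at 1217 TPM against 1.62 TPM of Cyp2c40. Cyp2c37, Cyp2c50 and Cyp2c54 summed were lower in C3 by 0.77 in females and by 0.70 in males, both called, and differed by 0.28 and 0.21 between the sexes in B6 and C3, not called. Cyp2c29, Cyp2c38 and Cyp2c39 summed gave no call (edgeR adjusted p from 0.0015 to 0.88), and the sum followed Cyp2c29 by sex, with females over males at -0.41 in B6 and -0.47 in C3. Cyp2c29 had the highest CPM of these 3 genes in every liver.

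Of the other 6 Cyp2c loci of the cluster, Cyp2c67 and Cyp2c68 sit among the members and the rest before Cyp2c29, and 4 of the 6 could be tested. Cyp2c68, next to Cyp2c40, was higher in females by 1.56 ± 0.14 in B6 and 1.28 ± 0.14 in C3, and lower in C3 by 1.08 in females and 0.80 in males. Cyp2c67, next to Cyp2c68, was not called by sex in B6 by edgeR at -0.65 ± 0.14, while DESeq2 called it higher in males. In C3 it was higher in males at -2.40 ± 0.15, with an interaction of -1.76 ± 0.20 that was called (edgeR adjusted p = 5.9e-05). So along the row of 4 genes on the minus strand, the sex difference went from a male excess at Cyp2c67 to a female excess at Cyp2c68, Cyp2c40 and Cyp2c69. The male excess was called by edgeR in C3 alone. The pseudogene Cyp2c53-ps, next to Cyp2c29, was higher in males, by 5.69 in B6 and 7.12 in C3. Its female libraries held only 3 to 8 counts in B6 and 0 to 4 in C3, so the size of this difference is uncertain. Cyp2c55, at the start of the cluster, was called higher in males in C3 alone, at -1.57 ± 0.32 against -1.10 ± 0.30 in B6. Cyp2c65 and Cyp2c66 were at or below 0.155 CPM in every liver and were not tested.

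**Figure D4:**
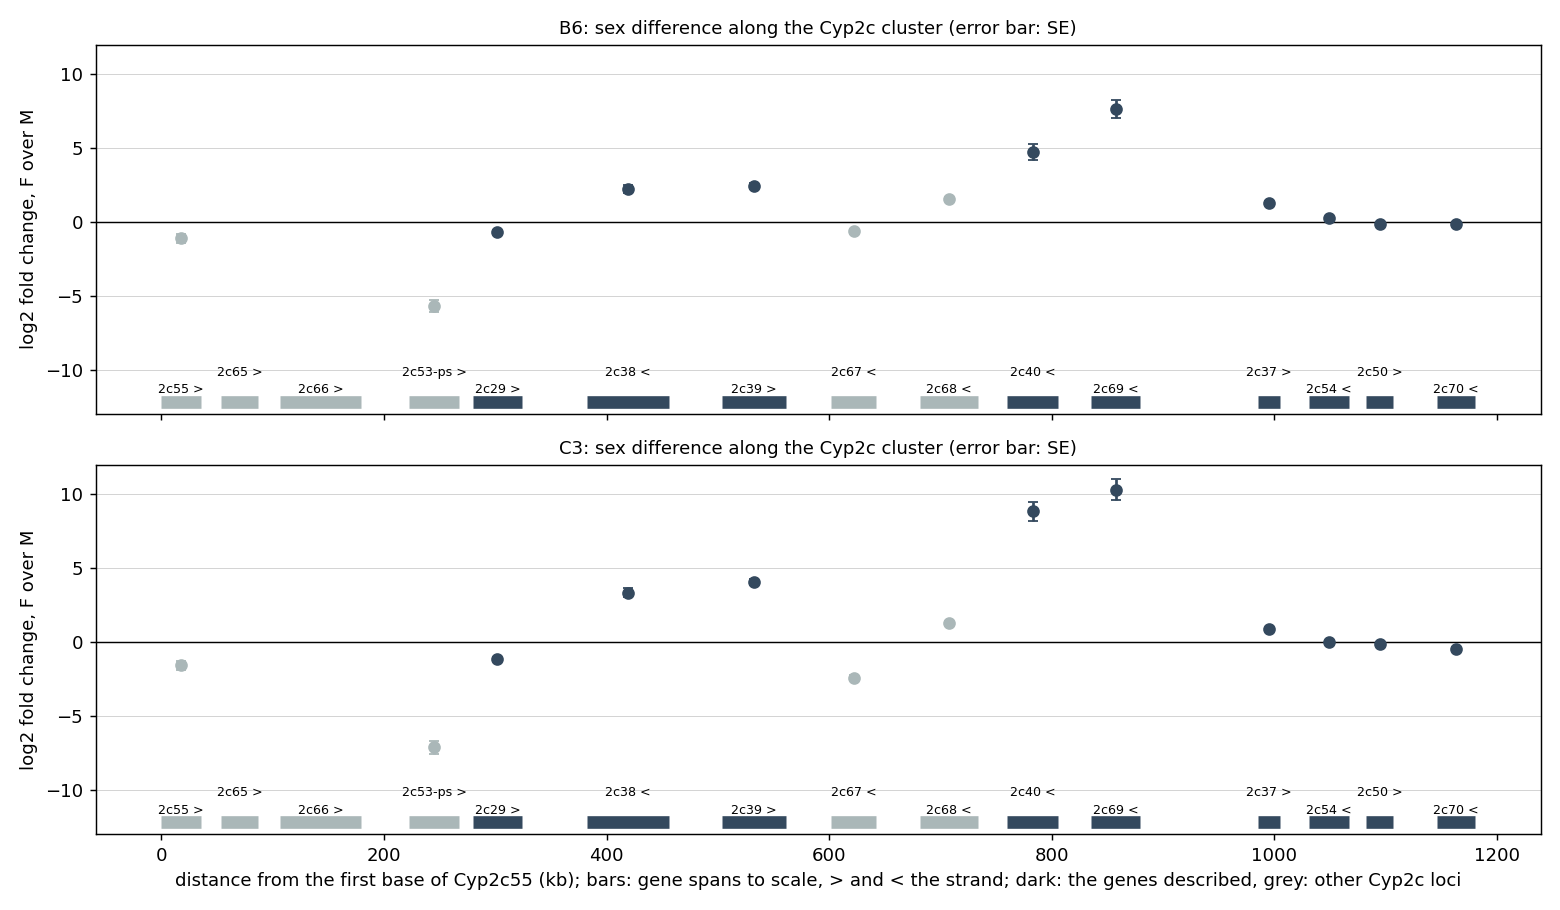
Log2 fold change of females over males (error bar: SE) at the middle of each Cyp2c gene, against distance in kb from the start of Cyp2c55, for B6 above and C3 below. Gene spans are drawn to scale with their strand, and the highest points are Cyp2c40 and Cyp2c69 at the centre of the cluster, at 4.71 and 7.64 in B6 and 8.85 and 10.33 in C3.

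Over the 20 livers, log2 CPM of Cyp2c40 and Cyp2c69 had a Pearson r of 0.98, Cyp2c29 and Cyp2c40 of -0.97, and Cyp2c44 and Cyp2c50 of 0.94. These values are set mainly by the 4 groups, which all genes share. Deviations from the group means gave r = 0.93 for Cyp2c38 and Cyp2c39, 0.82 for Cyp2c40 and Cyp2c69, 0.81 for Cyp2c40 and Cyp2c70, -0.77 for Cyp2c37 and Cyp2c44, and -0.76 for Cyp2c29 and Cyp2c69. With the pool means taken out as well, these were 0.88, 0.80, 0.75, 0.59 and -0.75. Of these 5 pairs, Cyp2c37 with Cyp2c44 changed sign with pool removed. Cyp2c40 and Cyp2c69 varied most in the males, where Cyp2c40 was at 53.7 CPM or less and Cyp2c69 at 21.8 CPM or less. The coefficient of variation of Cyp2c40 was 109% in B6 males and 71.5% in C3 males, against 16.8% and 5.59% in females. Values of r for pairs with either gene therefore lean on the male livers, B6 male 3 among them. Of the 45 pairs, 5 had r over 0.7 and 2 under -0.7 before the pool was removed, and 4 and 3 after it. With pools removed the highest value was that of Cyp2c50 with Cyp2c54, which went from 0.47 to 0.89, and the lowest that of Cyp2c38 with Cyp2c69, which went from -0.39 to -0.84. The pair of Cyp2c38 and Cyp2c39 thus varied together from mouse to mouse within groups, while their ratio differed between the strains.

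**Figure D5:**
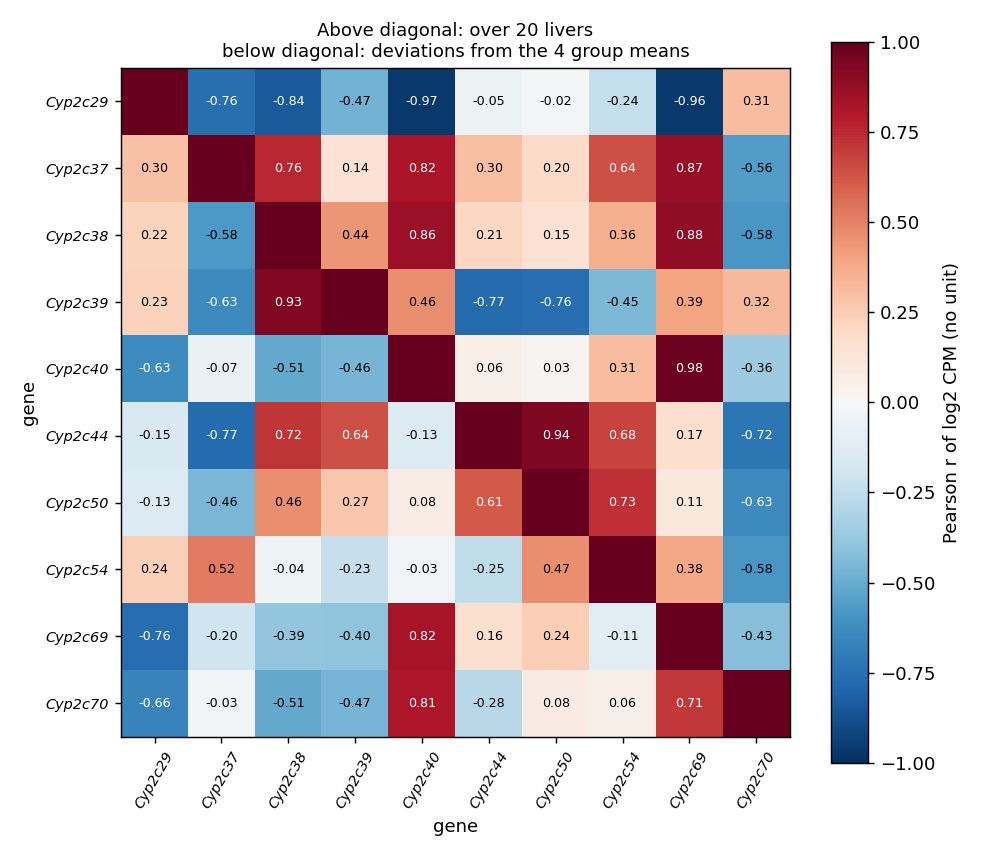
Pearson r of log2 CPM for each pair of the 10 genes, over 20 livers above the diagonal and over deviations from the 4 group means below it, from -1 (blue) to 1 (red). Below the diagonal, Cyp2c38 with Cyp2c39 has the highest value, 0.93, and Cyp2c37 with Cyp2c44 the lowest, -0.77.

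Outside the family, the tested gene whose log2 CPM was most like that of Cyp2c40 over the 20 livers was Eif2s3x, an X-linked translation factor gene (r = 0.96), which was also the closest to Cyp2c69 (0.96). Sult3a1, a sulfotransferase gene, was among the 3 closest to both, at 0.94 for Cyp2c40 and 0.95 for Cyp2c69. The closest gene was Enpp1 for Cyp2c37 (0.97), Atp6v0d2 for Cyp2c38 (0.95), App for Cyp2c39 (0.96), Cfap126 for Cyp2c44 (0.98), Habp4 for Cyp2c50 (0.95) and Arsa for Cyp2c29 (0.94). Cyp2c70 was closest to Ergic2 (0.92), and Cyp2c54 to Tpbgl (0.85), the lowest of these values. The next 2 genes were Car3 and Dpy19l3 for Cyp2c29, Stard8 and Ncald for Cyp2c37, Slc22a27 and Fmo2 for Cyp2c38, Ttc3 and St6gal1 for Cyp2c39, and Cd300ld and C730036E19Rik for Cyp2c44. They were Cfap126 and Lyrm7 for Cyp2c50, Chsy1 and Crp for Cyp2c54, Cpsf3l and Ostc for Cyp2c70, Xist beside Sult3a1 for Cyp2c40, and Cyp2b13 beside Sult3a1 for Cyp2c69. These r values are descriptions over livers that share 4 groups.

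Among genes that work with the Cyp2c enzymes, Por, the reductase that hands them electrons, was higher in females by 0.83 ± 0.12 in B6 and 0.96 ± 0.12 in C3, on the log2 scale used for every value of this paragraph. Of the 4 electron donors tested, Cyb5b (-0.53) and Cyb5r3 (-0.60) were higher in males in B6, and Cyb5b was lower in C3 by 0.54 in females and 0.73 in males. In the arachidonic acid epoxide list, with 7 of 13 genes tested, 3 genes were higher in males in both strains. These were the epoxide hydrolases Ephx1 (by 0.57 in B6 and 0.77 in C3) and Ephx2 (by 0.84 and 0.95) and the P450 gene Cyp2j6 (by 0.59 and 0.64). Pla2g4a, a phospholipase that releases arachidonic acid, was lower in C3 by 0.90 in females and 0.93 in males, and Ephx1 (-0.66) and Ptgs1 (-0.54) were lower in C3 females.

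Among the retinoid genes, with 12 of 13 tested, edgeR called the retinol dehydrogenase gene Rdh9 (1.12) higher in females in B6 and Rdh16 (0.85) in C3. The gene of the retinal-oxidising enzyme Aldh1a1 was called higher in males in C3 (-0.94), and between strains Aldh1a1 (-0.67) and Rdh9 (-0.75) were lower in C3 females. DESeq2 called Rdh9 higher in females and Aldh1a1 higher in males in both strains, so neither sex difference was particular to 1 strain by that tool.

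Of 12 regulators tied to growth hormone and sex, Cux2, a repressor known from female liver, was higher in females by 5.56 ± 0.52 in B6 and 6.30 ± 0.52 in C3, and Trim24 by 2.30 ± 0.21 and 2.23 ± 0.21. The male libraries held only 3 to 19 counts of Cux2 in B6 and 1 to 13 in C3, so its male level is near the limit of this depth. Bcl6, a repressor known from male liver, was higher in males in B6 by 2.44 ± 0.48, and in C3 its value of -1.71 ± 0.47 was not called. By strain edgeR called 0 of the 12 in either sex, as did DESeq2, with 1 in females and 2 in males at an unadjusted p under 0.05. Of 10 xenobiotic receptors and liver factors, among them Nr1i2, Nr1i3, Hnf4a and Rxra, edgeR called 0 in each of the 5 comparisons, with 1 to 6 at an unadjusted p under 0.05. DESeq2 called 1 of them, lower in C3 females, and their median log2 fold changes lay between -0.12 and 0.01.

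Markers of pericentral hepatocytes, the zone where many P450 genes are expressed, moved with the strain. Of 8 tested, 6 were lower in C3 females, which were Slc1a2 (-2.38), Oat (-1.97), Cyp1a2 (-0.79), Glul (-0.75), Rhbg (-0.68) and Cyp2e1 (-0.53). In C3 males 5 were lower, which were Slc1a2 (-1.78), Oat (-1.47), Lgr5 (-0.98), Glul (-0.95) and Rhbg (-0.74). Their summed level was 10380 to 14290 CPM in B6 females against 6312 to 8585 in C3 females, and 9607 to 13890 in B6 males against 8022 to 11740 in C3 males, and no gene of the list was at 0 throughout. The called markers had the same direction as the members called lower in C3, among them Cyp2c44 and Cyp2c50. They had the opposite direction to the members called higher in C3, which were Cyp2c39 in both sexes and Cyp2c70 in males. The part of these markers in the strain differences was not tested. By sex, edgeR called 0 of the 8 in B6, with 1 at an unadjusted p under 0.05 and 1 called by DESeq2, and Cyp1a2 was higher in males in C3 (-1.0003). Of 8 periportal markers, Cyp2f2 was higher in males (-0.86 in B6, -0.88 in C3), and Hsd17b13 in both sexes (-0.92 in females, -1.19 in males) and Hal in males (-0.68) were lower in C3.

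The other marker lists had fewer calls. Of 7 hepatocyte markers Apoa1 was higher in C3 by 0.84 in females and 0.71 in males. Of 5 Kupffer cell markers, Vsig4 was higher in females in both strains (0.75 and 0.51) and lower in C3 (-0.81 in females, -0.57 in males). Adgre1 (-0.94 and -0.91) and, in females, Clec4f (-0.55) were lower in C3 as well. The sum of the 5 markers was 223 to 288.4 CPM in B6 females and 150.9 to 220.2 CPM in B6 males. In C3 the sum was 136.7 to 221.6 CPM in females and 105.5 to 149.8 CPM in males. Of 5 endothelial markers, Lyve1 was lower in C3 females (-0.98), and of 5 cholangiocyte markers Sox9 was higher in males (-1.42 in B6, -0.84 in C3) and in C3 females over B6 females (0.85). Of 5 stellate and 5 lymphocyte markers edgeR called 0 in each comparison. At an unadjusted p under 0.05 there were 2 to 4 stellate and 1 to 5 lymphocyte markers, and DESeq2 called 1 stellate marker lower in C3 in each sex and 2 lymphocyte markers lower in C3 males. The lymphocyte sum stayed at or below 3.735 CPM. Alas2, the 1 erythroid gene tested, was higher in males by 2.76 in B6 and 3.28 in C3, while the remaining 3 loci of that list had no count in any liver. Cela1, the 1 pancreas gene tested, was higher in C3 by 0.61 in females and 0.98 in males and higher in C3 males than in C3 females (-0.95).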

How the data were processed

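Total RNA of the left lateral liver lobe was depleted of ribosomal RNA and sequenced as stranded 125-base read pairs. According to the methods, the authors trimmed reads with Cutadapt 1.9.1, aligned them to mm9 with STAR 2.5.1b and counted uniquely placed pairs per RefSeq gene with featureCounts (Subread 1.5.0-p1), for both strains on the same reference. The deposited tables hold those raw counts and the authors' TPM values for 25444 loci. The headers of their symbol and gene ID columns are exchanged.

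Counts were filtered with filterByExpr, scaled with TMM and fitted in edgeR 4.0.16 (R 4.3.3) with group and sequencing pool as terms over all 20 libraries. A locus was called at a Benjamini-Hochberg adjusted p under 0.001 over 13704 loci with a log2 fold change over 0.5 in size. The SE was the fold change over the root of the F statistic, and intervals are normal, at 1.96 SE to either side. They make no allowance for the few livers per group, so they are narrower than the edgeR test would give. CPM values are counts over TMM-adjusted library totals. The replicates were 5 separate mice a group. The 40 pairs of libraries of 1 group correlated at 0.973 to 0.993 in log2 CPM, and none were identical. Scripts were tested on simulated data.

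DESeq2 1.42.0, limma 3.58.1 on log2(TPM + 1) and log2(TPM + 0.1), other filters, scalings and terms, and leaving out each library were alternatives. Coding sequences and windows of 250 bases before gene starts came from the mm9 genome with GENCODE gene models. The members and lists were chosen with earlier results of these data known. Every member is named, each list is given by its counts with values for its called genes (1 gene is not reported here), and each member by the 3 genes most like it in log2 CPM.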

Additional observations from a re-analysis of the deposited data

Results flagged for a closer look

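In 3 of the 40 combinations of member and group, 1 liver stood apart from the other 4 by Dixon's test, where chance gives about 1 in 20. Cyp2c29 was at 1735.67 CPM in B6 female 3, the 1 B6 female of pool 2, with the nearest other female at 1337.14 CPM. Cyp2c44 was at 40.4977 CPM in C3 male 4, the 1 C3 male of pool 3, with the nearest other male at 73.4016 CPM. Cyp2c54 was at 620.819 CPM in B6 female 1, with the nearest other female at 489.184 CPM. The female-to-male ratio of Cyp2c44 differed between the strains by -0.6894 on the log2 scale, and this difference was tested as an interaction.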

How the results depend on the processing

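The 4 sex and strain comparisons kept the direction of every called member under each alternative fitted to single members, and summing close relatives is the exception. The number of members called by sex was 4 to 7 in B6 and 6 to 8 in C3, against 6 in both, and 6 and 6 to 7 with 1 liver left out. For strain in females, 3 were called in place of 5 by glmTreat, without the pool term and with the replicate block in place of pool, and 4 to 5 with 1 liver left out. For strain in males, 4 were called in place of 7 with the replicate block without pool, 3 with the male libraries alone, and 3 to 7 with 1 liver left out, the 3 being without C3 male 4. For the interaction, 3 were called in place of 1 by DESeq2 and at an adjusted p under 0.05, 0 by limma on log2(TPM + 0.1), by glmTreat, with total counts, without pool and with the replicate block with or without pool, and 0 to 2 with 1 liver left out. Mean correlations of same-numbered livers were -0.19, -0.24, 0.22 and 0.18 in the 4 comparisons, with single pairs up to 0.56 and 0.63 in the strain comparisons. With pool removed the means were 0.0997, -0.0132, 0.064 and 0.0105, so replicate numbers were not taken to pair the mice.

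Of the 15 values of 3 sums of close members, 5 were called, 3 by glmTreat, 12 at an adjusted p under 0.05 and 5 to 6 with 1 liver left out. Summing turned the direction of Cyp2c38 and Cyp2c39 by sex (-0.4059 in B6, -0.4736 in C3), of Cyp2c50 by sex (0.2781 and 0.208), of Cyp2c29 and Cyp2c38 by strain in females (0.2663), of Cyp2c38 by strain in males (0.334), of Cyp2c40 by strain in females (-0.5142), and of the interaction of Cyp2c38 and Cyp2c39 (-0.0677) and of Cyp2c50 (-0.0701). The sum of Cyp2c40, Cyp2c67, Cyp2c68 and Cyp2c69, chosen after seeing the data, turned Cyp2c40 by strain in females (-0.6685), both members by strain in males (0.9455) and their interaction (-1.614). A sum weights its genes by their counts, so it leans towards the more abundant ones.

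Other turns were in values near 0 that were never called. Cyp2c54 by sex in C3 was -0.0155 by DESeq2, -0.0138 with relative log expression scaling, -0.0084 without a filter, -0.0047 with a CPM filter, -0.0033 with the replicate block and pool, -0.02 with the C3 libraries alone and -0.0817 to 0.0859 with 1 liver left out. Cyp2c50 by sex in C3 was 0.0021 and 0.002 by limma with pseudocounts of 1 and 0.1. Cyp2c70 by sex in B6 was -0.2446 to 0.0252 with 1 liver left out, the last without B6 male 3, and the Cyp2c50 interaction was -0.0142 to 0.1212, the first without C3 female 4. The cause of these changes was not tested. Depth limits the male levels of Cyp2c69 and Cyp2c40 in C3.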
